A study of Homo sapiens with 15 samples.

Results

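The effect of lithium doping was examined by comparing HaCaT cells, immortalised keratinocytes of human skin, given Li-doped Ag2S NPs with the same cells given undoped Ag2S NPs, both at 320 μg/mL for 24 h. The comparison used 6 of the 15 libraries of the series, chosen by their labels, namely replicates 13, 14 and 15 with Li-doped Ag2S NPs and replicates 7, 8 and 9 with Ag2S NPs. Cells left untreated gave the 3 control libraries, which show on which side of the untreated level each gene lies. The 6 libraries at 160 μg/mL were used only to compare the effect of doping between doses. Both kinds of particle came from one sonochemical synthesis in dodecanethiol and were coated with mercaptopropionic acid, and lithium was added to the reaction for the doped kind. The lithium content of the batch given to the cells is not stated in the sources used here, and no group received lithium without silver. The sources do not tie the libraries of a group to different cultures, and the p-values below therefore cover the spread between these libraries only, which may be technical.

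Silver sulfide is a poorly soluble semiconductor that emits in the near infrared, and silver ions bind thiols and can induce metallothioneins, the small cysteine-rich proteins that hold metals. Lithium ions are known as inhibitors of glycogen synthase kinase 3 (GSK3), a kinase that marks β-catenin and several metabolic regulators for inactivation, and of inositol monophosphatase, which recycles inositol. Keratinocytes move from a basal state, marked by KRT5 and KRT14, through KRT1 and KRT10 to the cornified layer, and express KRT6 and KRT16 in wounded skin.

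Expression was deposited as FPKM, fragments scaled to the length of the transcript and to the mapped fragments of the library, and the number of reads behind a value is unknown. The sum of FPKM ran from 582451 to 623766 with Ag2S NPs and from 626624 to 698579 with Li-doped Ag2S NPs. The highest sum and the lowest median FPKM (4.38) were those of Li-doped replicate 15, which stood apart from replicates 13 and 14. Pearson's r of log2(FPKM + 0.1) across genes, which are not independent replicates, was 0.98 to 0.987 within the groups. All 10 keratinocyte markers passed the filter on low values, and their summed FPKM was 10251.01 to 10657.49 in control, 15262.92 to 17031.59 with Ag2S NPs and 25815.59 to 30612.21 with Li-doped Ag2S NPs. Most of each sum was KRT5 and KRT14, and of the 10 markers 5 were higher with doping, 1, TP63, was lower, and 4 did not differ past the test. The summed FPKM of fibroblast markers was at most 7.04 in the particle libraries, that of endothelial markers at most 0.62 and that of melanocyte markers at most 3.11. The immune markers in the table summed to 18.43 to 22.08 with Ag2S NPs and to 9.83 to 12.41 with Li-doped Ag2S NPs, and most of these sums was CD68, the gene of a lysosomal protein, at 16.28 to 20.05 and at 9.08 to 11.13. The immune markers CD3E, CD14 and ITGAM were each at most 1.68 in the particle libraries. In bulk RNA, fewer cells in a given state and less RNA per cell cannot be told apart.

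The level of 26.2% of the genes tested differed between the particles, mostly by less than 2-fold. In this text a gene rose or fell when its level with Li-doped Ag2S NPs was higher or lower than with undoped Ag2S NPs at an adjusted p under 0.05 in limma, unless control is named. Of the 11903 genes whose FPKM averaged at least 1, 1203 rose (10.1%) and 1921 fell (16.1%), which is 26.2% together. A change of more than 2-fold was seen for 62 of the genes that rose and 113 of those that fell. The 3 libraries of one particle all lay above or all below the 3 of the other for 41.3% of the genes, 15.7% higher and 25.6% lower with doping. The glutathione-degrading enzyme gene CHAC1 and the suprabasal keratin gene KRT1 were among the largest rises, and the retinol receptor gene STRA6 was the largest fall under the rule for named genes. Without replicate 15 the counts were 1081 and 1557. Without Ag2S replicate 7 they were 669 and 1051, and without Ag2S replicate 8 they were 753 and 1190, the largest losses among the libraries left out in turn.

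**Figure D1:**
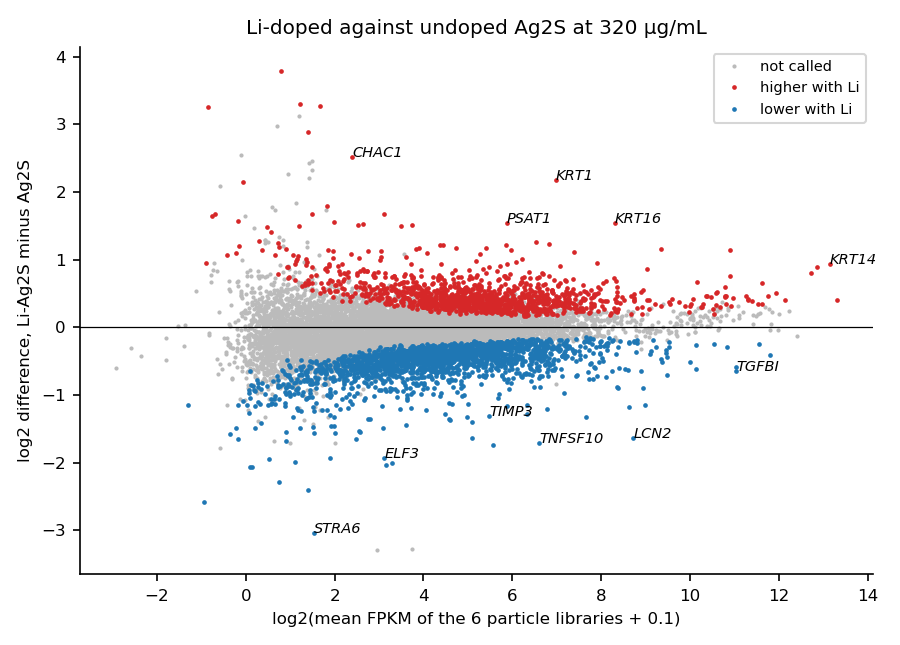
Log2 difference between Li-doped and undoped Ag2S NPs at 320 μg/mL (vertical axis) for the 11903 genes tested. The horizontal axis is log2(mean FPKM + 0.1), with the mean over the 6 particle libraries and without control. Genes past an adjusted p of 0.05 are in colour, and some are labelled. Most called genes lie within a 2-fold change of 0, and 113 fell and 62 rose by more than that.

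The share of genes that rose depended on how libraries were put on one scale. Risen genes made up 38.5% of those called on FPKM as deposited, 50.6% when libraries were divided by their median ratio to the mean library, and 23% when they were divided by their sum. The median log2 difference of all genes was -0.083 as deposited, -0.0031 with the median ratio and -0.19 with the sum. Of the 97 genes followed through the alternatives, 0 changed direction under either scaling. Genes named below but not among the 97, such as PSPH and ALDH18A1, were not checked in this way.

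The difference between the particles also moved with the base composition of the transcripts. Across the 11903 genes, Spearman's rho of the log2 difference was 0.493 with the GC content of the transcript and -0.273 with its length. Among the 2381 genes with the lowest GC content the median log2 difference was -0.292, 0.966% of genes rose and 31.2% fell. Among the 2381 with the highest GC content the median was 0.16, 24.1% rose and 4.66% fell. Replicate 15 lay furthest out, with a median deviation of -0.477 over the genes of lowest GC content against -0.218 and -0.154 in replicates 13 and 14 and 0.0761, 0.0131 and -0.0533 in the Ag2S libraries. At 160 μg/mL the same contrast had a rho of 0.0681 with GC content and 0.0395 with length. When the smooth trend with GC content and length was removed from each library, an alternative chosen after seeing the data, 1184 genes rose (9.95%) and 1123 fell (9.43%). Of the 3124 genes called on deposited values, 1720 were called in the same direction after this removal and 0 in the opposite one. Of the 175 called with more than a 2-fold change, 157 were still called in the same direction, at any fold, while 48 rises and 84 falls of more than 2-fold were called in all after the removal. Whether the trend is a property of the cells or of the libraries was not tested. Counts after removal of the trend are given in brackets beside those of each gene list below. List counts are to be read against the 10.1% of all genes that rose and the 16.1% that fell (9.95% and 9.43%).

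**Figure D2:**
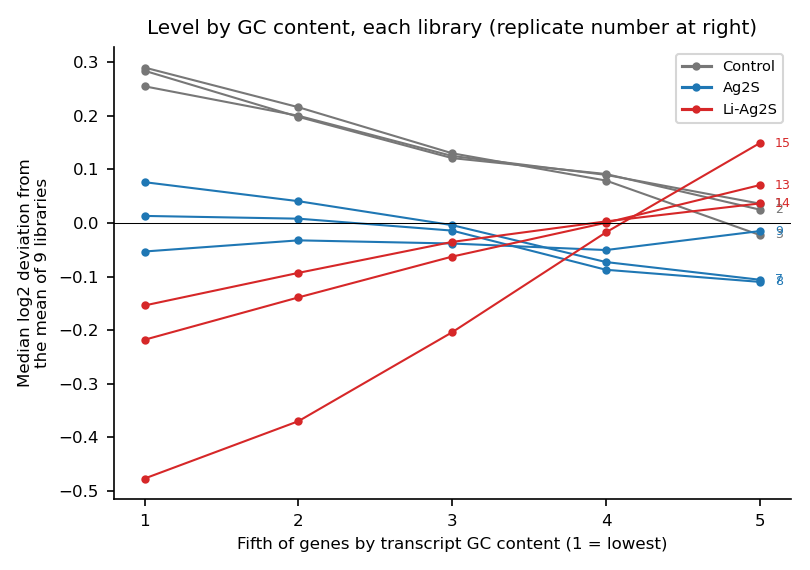
Median log2 deviation of each library from the mean of all libraries (vertical axis) in 5 classes of genes of equal size, ordered by the GC content of the transcript (horizontal axis), for the control, Ag2S and Li-doped Ag2S libraries at 320 μg/mL. The 3 Li-doped libraries slope upward from low to high GC content, and replicate 15, at -0.477 in the lowest class and 0.149 in the highest, slopes most.

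Most tested targets of ATF4 rose with doping. ATF4 is the transcription factor through which cells answer amino acid shortage and other stresses on translation, and its targets make and import amino acids. Of 31 tested targets 19 rose and 0 fell (16 and 1 with the trend removed), with a median log2 difference of 0.41 against -0.08 over all genes. CHAC1, on chromosome 15 of GRCh38 from 40952962 to 40956519, had an FPKM of 1.64, 1.25 and 1.47 with Ag2S NPs and of 9.99, 6.85 and 9.72 with Li-doped Ag2S NPs. Its control libraries lay between 0.89 and 1.25 and reached the lowest Ag2S library. Undoped cells did not differ from control past the test (adjusted p = 0.182, limma). All 3 Li-doped libraries stood far above both groups, with a log2 difference from undoped of 2.51 (SE 0.215, adjusted p = 2.77e-05, limma). The asparagine synthetase gene ASNS had an FPKM of 17.91, 15.81 and 15.29 with Ag2S NPs, 41.33, 35.37 and 34.35 with Li-doped Ag2S NPs, and 5.97 to 7.70 in control. The groups did not overlap, in the order control, undoped and doped, and the difference was 1.17 (SE 0.117, adjusted p = 7.63e-05, limma). The pseudokinase gene TRIB3 rose by 0.75 from a mean FPKM of 41.9 ± 2.05 (SD, n = 3 libraries) to 70.9 ± 6.5, and the stress sensor gene SESN2 rose by 0.78 from 9.66 ± 0.435 to 16.7 ± 1.13. TRIB3 was at 42.4 in control, near its undoped level, and SESN2 at 19.2, above both particles. The mRNA of ATF4 itself, chosen after its values were seen, had an FPKM of 251.9, 270.5 and 284.6 with Ag2S NPs and 370.3, 353.6 and 433.3 with Li-doped Ag2S NPs. The groups were separate, with a difference of 0.52 (SE 0.0792, adjusted p = 0.00117, limma).

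ATF4 binds a composite element of the letters TGATGNAAN, where N is any base. The promoters of CHAC1 and ASNS are shown because these targets rose and held a match. The element was searched on both strands in the 250 bases before the RefSeq start of each gene, and its match is in capitals. The CHAC1 window is chr15:40953241-40953360 on the plus strand of GRCh38.p14, where the match is on the opposite strand, and the ASNS window is chr7:97872409-97872528 on the minus strand.
CHAC1: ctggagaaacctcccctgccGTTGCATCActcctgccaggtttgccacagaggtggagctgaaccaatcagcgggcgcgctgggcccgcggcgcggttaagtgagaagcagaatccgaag
ASNS: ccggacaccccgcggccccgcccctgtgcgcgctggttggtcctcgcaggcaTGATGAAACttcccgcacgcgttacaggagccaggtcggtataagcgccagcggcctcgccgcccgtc
Of the 27 ATF4 targets with a RefSeq promoter, 3 held the element (11.1%), against 3.13% of 35116 promoters. Of these 3, CHAC1 and ASNS rose and ATF3 did not pass the test. TRIB3 and SESN2, which rose, were not among the targets with a match. A match is a description of the letters and not of binding.

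Some genes of serine and proline synthesis were among the genes that rose. PSAT1, the aminotransferase of serine synthesis, had an FPKM of 31.41, 28.43 and 29.27 with Ag2S NPs and of 103.6, 87.74 and 71.21 with Li-doped Ag2S NPs, and control lay at 27.35 to 30.30. Undoped particles thus sat at the control level and doped particles far above it, with a difference of 1.54 (SE 0.115, adjusted p = 1.01e-05, limma). PHGDH, the first enzyme of that pathway, was at 160.7, 156.8 and 176.2 with Ag2S NPs and at 315.4, 291 and 344.7 with Li-doped Ag2S NPs, with a difference of 0.94 (SE 0.0713, adjusted p = 1.05e-05, limma). Control, at a mean of 236, lay between the particles. PYCR1, which completes proline synthesis, rose by 1.04 from 7.89 ± 0.641 to 16.4 ± 2.68, and PRODH, which degrades proline, rose by 1.22 from 34.7 ± 2.79 to 80.9 ± 2.71, back at the control mean of 82.3. The serine hydroxymethyltransferase genes rose by 0.71 for the cytosolic SHMT1 and by 0.66 for the mitochondrial SHMT2. SLC6A9, which imports glycine, was at 24.29, 24.01 and 24.56 with Ag2S NPs and at 47.59, 47.68 and 49.3 with Li-doped Ag2S NPs, a difference of 0.99 (SE 0.0611, adjusted p = 2.66e-06, limma) with no overlap. Of 17 genes of serine synthesis and folate metabolism, 5 rose and 1 fell (5 and 0). The phosphatase gene PSPH of serine synthesis and the proline synthesis gene ALDH18A1, both named after their values were seen, had overlapping groups and differences of 0.31 and -0.0018 (adjusted p = 0.107 and 0.991, limma). Of 24 genes of cytosolic tRNA synthetases, which charge tRNAs with amino acids, and of the scaffold proteins of their complex, 7 rose and 5 fell (12 and 1), among them the alanyl-tRNA synthetase gene AARS, which rose by 0.81 from 60.1 ± 1.29 to 106 ± 6.85.

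**Figure D3:**
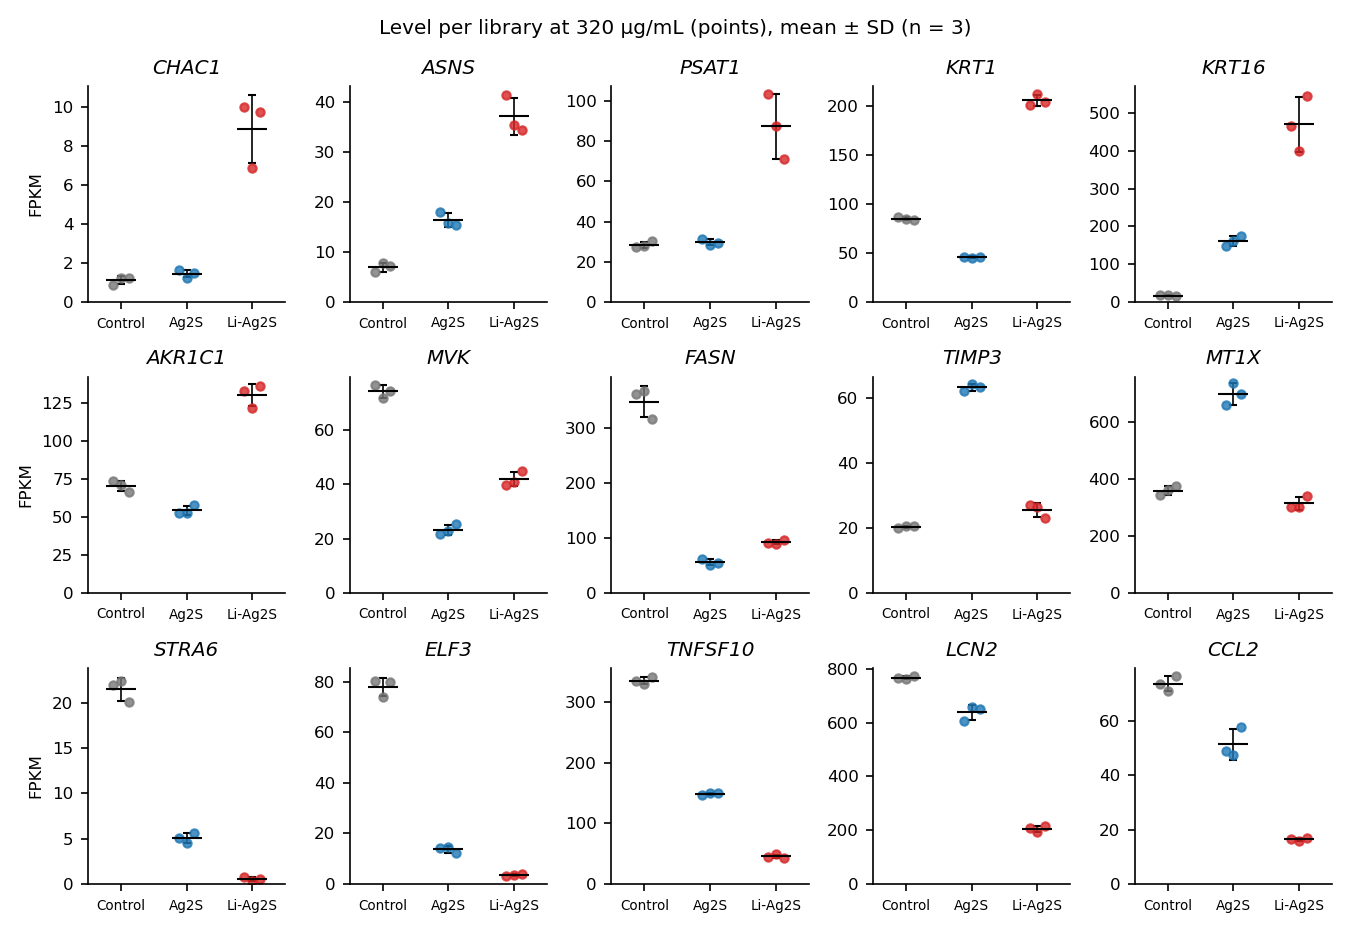
FPKM of 15 genes in each library at 320 μg/mL (points), with the mean and SD of the 3 libraries of each group, in control, Ag2S and Li-doped Ag2S cells, each panel with its own axis from 0. In every panel the Li-doped points lie entirely above or entirely below the Ag2S points, as for KRT1 at about 205 against 45.5 and STRA6 at 0.553 against 5.07. The genes shown were picked from the named genes, which were taken in part for non-overlapping libraries or a small p-value. This separation therefore follows in part from the choice.

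Keratins were among the genes that rose most. Of 16 keratin genes tested, 10 rose and 3 fell (10 and 3), with a median difference of 0.50. KRT1, a keratin of the layers above the basal one, on chromosome 12 of GRCh38 from 52674736 to 52680407, had an FPKM of 46.19, 44.26 and 46.06 with Ag2S NPs, 200.7, 211.6 and 203.6 with Li-doped Ag2S NPs, and 83.22 to 86.15 in control. Undoped cells lay below control and doped cells above it, a difference of 2.17 (SE 0.0543, adjusted p = 2.15e-09, limma). The wound keratin gene KRT16 was at 147.5, 161.2 and 174 with Ag2S NPs and at 465.6, 399.5 and 544.9 with Li-doped Ag2S NPs, while control lay at 15.16 to 18.01. KRT16 rose by 1.54 (SE 0.11, adjusted p = 9.46e-06, limma), and KRT6A, its partner, rose by 1.14, from a mean of 1184 to 2621. The basal keratin genes KRT5 and KRT14 rose as well. KRT5 was at 4995, 5252 and 5435 with Ag2S NPs and at 9403, 9297 and 10284 with Li-doped Ag2S NPs, a difference of 0.89 with no overlap. KRT14 was at 5434, 6532 and 6626 and at 10791, 10725 and 14116 in the same order, a difference of 0.93. KRT14, KRT16 and KRT6A have near-identical copies whose reads the counting could have shared, so their split is uncertain. The mucosal keratin gene KRT13 fell by 0.66 on the log2 scale, from 134 ± 4.32 to 85.1 ± 1.16, with control at 608.

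Genes of keratinocyte differentiation other than keratins moved in both directions. Of 13 genes of the cornified envelope and late differentiation that passed the filter, 4 rose and 2 fell (3 and 2), with a median difference of 0.165. SPRR1B, a precursor of that envelope, was at 98.41, 105.1 and 113.4 with Ag2S NPs and at 252.5, 226.5 and 208.6 with Li-doped Ag2S NPs, with a difference of 1.11 (SE 0.0869, adjusted p = 1.36e-05, limma). Involucrin (IVL), another precursor, was at 5.03, 4.86 and 4.64 and at 1.65, 2.39 and 2.06 in the same order, so that it fell by 1.23 on the log2 scale (SE 0.156, adjusted p = 0.000368, limma). Sciellin (SCEL) fell by 1.65, from 8.44 ± 0.566 to 2.62 ± 0.0208, and had its control level at 30.4. Outside that list, the peptidylarginine deiminase gene PADI3 was at 15.48, 15.59 and 15.71 with Ag2S NPs and at 3.99, 4.08 and 3.36 with Li-doped Ag2S NPs, with control at 1.26 to 1.42. It fell by 2.01 from a level that undoped particles had raised. The serine protease gene TMPRSS11E, also outside that list, fell by 2.03, from 14.2 ± 0.278 to 3.41 ± 0.217, with control at 12.5.

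Transcription factors of epithelial identity fell more often than they rose, 7 against 2 of 21 (5 and 2). Over all genes tested, 16.1% fell and 10.1% rose. With the trend removed the median difference of the list was -0.04. ELF3, an epithelial factor of the ETS family, was at 14.07, 14.57 and 12.27 with Ag2S NPs, at 3.25, 3.46 and 3.77 with Li-doped Ag2S NPs and at 73.96 to 80.17 in control. The 3 groups were apart from each other, with doped cells furthest from control, and the difference was -1.93 (SE 0.0969, adjusted p = 6.84e-07, limma). The pioneer factor gene FOXA1 fell by 2.07, from 1.62 ± 0.334 to 0.33 ± 0.175, and the forkhead gene FOXC1 fell by 1.36, from 9.95 ± 0.499 to 3.82 ± 0.458. TP63, the master factor of stratified epithelia, was at 275.3, 254.2 and 238.9 with Ag2S NPs and at 174.2, 186.1 and 129.5 with Li-doped Ag2S NPs, with control near 102. It fell by 0.66 (SE 0.115, adjusted p = 0.00235, limma), or by 0.41 with the trend removed, and so lay closer to control with doping. The ectodysplasin receptor gene EDAR, a skin appendage receptor, fell by 1.53, from 8.64 ± 0.312 to 2.94 ± 0.466.

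Genes that handle retinoids, the vitamin A derivatives that restrain keratinocyte cornification, included STRA6, the largest fall under the rule for named genes. STRA6, which takes up retinol, is encoded on chromosome 15 of GRCh38, positions 74179466 to 74212267. It had an FPKM of 5.08, 4.51 and 5.62 with Ag2S NPs and of 0.80, 0.34 and 0.52 with Li-doped Ag2S NPs, against 20.03 to 22.37 in control. Doped cells thus lay furthest below control, and the difference was -3.04 (SE 0.227, adjusted p = 9.95e-06, limma). DHRS3, which reduces retinal to retinol, was at 43.46, 42.85 and 47.66 with Ag2S NPs and at 17.09, 15.70 and 20.93 with Li-doped Ag2S NPs, a difference of -1.32 (SE 0.0968, adjusted p = 9.58e-06, limma). The enzymes that make retinoic acid went in opposite directions. ALDH1A3 was at 76.52, 71.65 and 69.54 with Ag2S NPs and at 23.85, 23.85 and 17.68 with Li-doped Ag2S NPs, a difference of -1.74, while ALDH1A1 was at 1.18, 1.55 and 1.05 and at 4.24, 4.53 and 3.77, a difference of 1.67. The reductase gene DHRS2 fell by 1.92, from 5.82 ± 1.34 to 1.47 ± 0.401, and CYP24A1, which degrades vitamin D, fell by 1.55, from 8.77 ± 0.647 to 2.94 ± 0.247, near its control mean of 2.87. Of 17 genes of retinoid handling and response, 1 rose and 5 fell (2 and 4), against 10.1% and 16.1% of all genes tested.

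Most tested genes of cholesterol synthesis, which the factor SREBP2 controls, rose with doping, while the median of the list stayed under control. In the list for cholesterol synthesis and uptake, 17 of 27 genes rose and 1 fell (21 and 1), with a median difference of 0.40. Their median difference from control was -1.13 with Ag2S NPs and -0.67 with Li-doped Ag2S NPs, values that share the control libraries. MVK, the mevalonate kinase of the early pathway, was at 21.71, 22.72 and 25.37 with Ag2S NPs, at 39.97, 40.99 and 44.87 with Li-doped Ag2S NPs and at 71.88 to 76.80 in control. All doped libraries lay between the other groups, and the difference from undoped was 0.85 (SE 0.0774, adjusted p = 3.96e-05, limma). The lanosterol synthase gene LSS rose by 0.77, from 27.3 ± 0.744 to 46.7 ± 3.25. INSIG1, which holds SREBP in the endoplasmic reticulum, rose by 0.61, from 52.2 ± 0.894 to 79.6 ± 3.47. Of 24 genes of fatty acid synthesis and desaturation, 7 rose and 2 fell (8 and 1). The fatty acid synthase gene FASN was at 61.41, 50.84 and 55.06 with Ag2S NPs and at 91.58, 89.35 and 96.86 with Li-doped Ag2S NPs, a difference of 0.73 (SE 0.0824, adjusted p = 0.000165, limma), and both groups were far under the control mean of 348. ACSL1, which activates fatty acids, rose by 1.16, from 8.66 ± 0.511 to 19.5 ± 1.46. The mitochondrial carrier gene UCP2 rose by 1.51, from 6.80 ± 1.01 to 19.6 ± 2.84, near its control mean of 17.5.

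Targets of NRF2, the factor that answers electrophiles and oxidants, rose more often than they fell, 14 against 7 of 33 (14 and 7). The aldo-keto reductase genes AKR1C1, AKR1C2 and AKR1C3 had the smallest p-values of the list in limma. The largest difference of the list, 1.29, was that of another member. AKR1C1 was at 52.96, 52.46 and 57.78 with Ag2S NPs and at 133.2, 122 and 136.3 with Li-doped Ag2S NPs, a difference of 1.26 (SE 0.0689, adjusted p = 1.37e-06, limma). AKR1C2 rose by 1.16 and AKR1C3 by 1.23, and these 3 genes are close copies whose reads may be shared. The quinone reductase gene NQO1 was at 194, 202.7 and 206.5 and at 286.4, 267.3 and 300.6 in the same order, a difference of 0.50 (SE 0.0599, adjusted p = 0.000258, limma), with control at 115. PGD, an enzyme of the pentose phosphate pathway, rose by 0.62, from 151 ± 7.12 to 232 ± 7.02. ALDH3A1, an aldehyde dehydrogenase, rose by 1.08, from 24.6 ± 2.44 to 52.5 ± 8.02, with control at 60.0. The mRNA of NRF2, NFE2L2, went the other way, from 77.06, 74 and 70.3 with Ag2S NPs to 48.05, 46.94 and 48.28 with Li-doped Ag2S NPs, a difference of -0.63 (SE 0.0604, adjusted p = 6.1e-05, limma). The antioxidant element TGACNNNGC, searched on both strands, was found in 6 of the 23 NRF2 targets with a RefSeq promoter (26.1%) and in 10.9% of all promoters. Of these 6 genes, 2 rose and 2 fell.

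**Figure D4:**
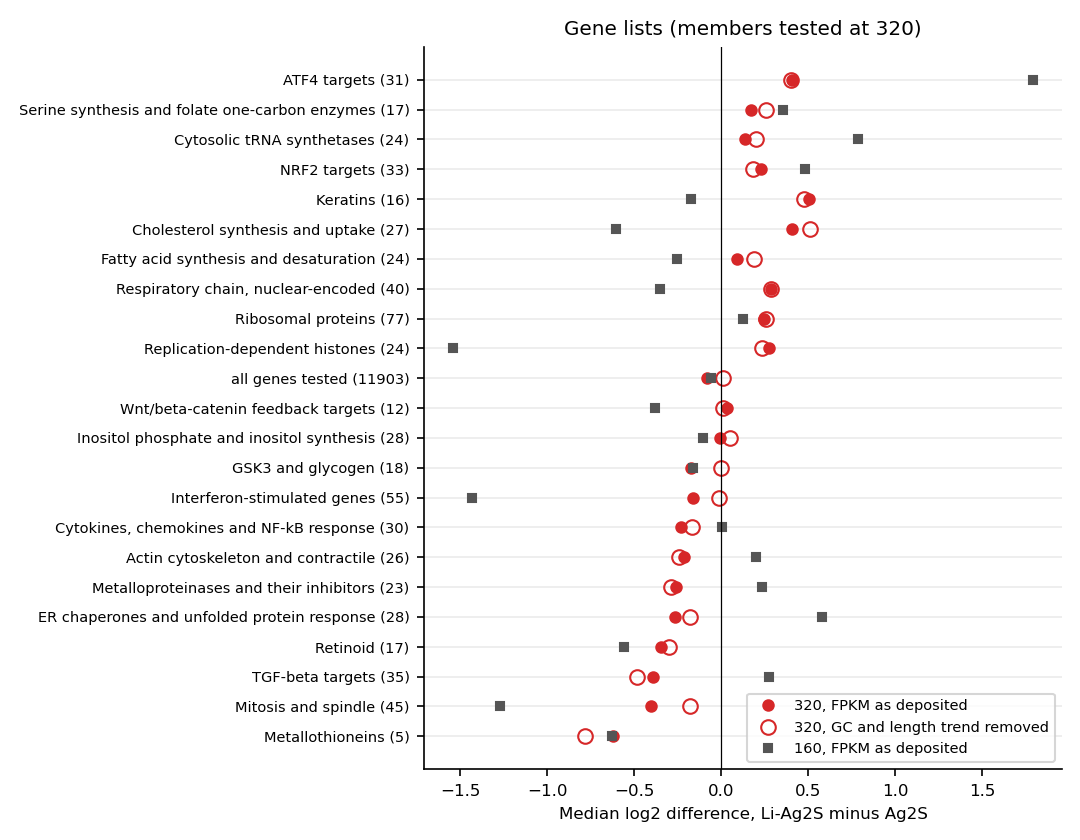
Median log2 difference between Li-doped and undoped Ag2S NPs over the tested members of each gene list (horizontal axis), at 320 μg/mL as deposited (filled red), at 320 μg/mL with the GC and length trend removed (open) and at 160 μg/mL (grey squares). At 320 μg/mL keratins, ATF4 targets and cholesterol synthesis lie at 0.40 to 0.50, and metallothioneins lie lowest at -0.62.

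Some metallothioneins were lower with doping. Of 5 tested members 0 rose and 3 fell (0 and 4), with a median difference of -0.62. MT1X was at 661.8, 737.9 and 699 with Ag2S NPs, at 302.8, 303.3 and 342.1 with Li-doped Ag2S NPs and at 343.9 to 375.8 in control. Undoped cells were apart from both other groups, and the difference between the particles was -1.15 (SE 0.0694, adjusted p = 2.27e-06, limma). MT2A was at 1269, 1342 and 1468 with Ag2S NPs, at 893, 850 and 906 with Li-doped Ag2S NPs and at 1334 to 1362 in control, so that doped cells lay below both other groups. It fell by 0.62 on the log2 scale (SE 0.067, adjusted p = 0.000125, limma). MT1F fell by 0.37 at an adjusted p of 0.0482, with libraries that overlapped between the groups. MT1E overlapped too, with a difference of -0.32 and an interval of -0.60 to -0.04 (adjusted p = 0.0814, limma), or of -0.50 (adjusted p = 0.0166, limma) with the trend removed. MT1 genes are near-identical copies, and their reads may be shared. The promoters of MT1X and MT2A are shown because the factor MTF1 acts on metallothioneins through metal response elements with the core TGCNCNC, a motif added after the lists were seen. The windows are chr16:56682300-56682449 for MT1X and chr16:56608334-56608483 for MT2A, both on the plus strand of GRCh38.p14, and matches on either strand are in capitals.
MT1X: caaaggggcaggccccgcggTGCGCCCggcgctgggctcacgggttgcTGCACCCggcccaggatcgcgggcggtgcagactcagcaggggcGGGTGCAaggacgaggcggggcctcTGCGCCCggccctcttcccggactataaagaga
MT2A: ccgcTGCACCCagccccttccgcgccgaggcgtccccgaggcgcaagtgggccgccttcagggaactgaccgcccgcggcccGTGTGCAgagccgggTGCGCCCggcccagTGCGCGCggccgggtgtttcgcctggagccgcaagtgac
Each window held 4 matches. The core is short, and 49.1% of all promoters held at least 1.

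Most targets of TGF-β stood above control with either particle, and about as many fell with doping as did not. TGF-β is the cytokine that drives matrix production through the SMAD factors. Of 35 tested targets 2 rose and 18 fell (2 and 19), with a median difference of -0.39. Of the 35, 33 were higher and 0 lower than control with Ag2S NPs, and 26 were higher and 3 lower with Li-doped Ag2S NPs. Their median difference from control was 1.32 with Ag2S NPs and 1.15 with Li-doped Ag2S NPs, values that share the control libraries. TGFBI, a secreted matrix protein, was at 2543, 2526 and 2640 with Ag2S NPs and at 1647, 1642 and 1654 with Li-doped Ag2S NPs, a difference of -0.64 (SE 0.0555, adjusted p = 2.97e-05, limma). Each doped library of TGFBI lay between the undoped libraries and control, which was at 564. TIMP3, an inhibitor of metalloproteinases, was at 62.29, 64.29 and 63.42 with Ag2S NPs and at 27.19, 26.35 and 23.15 with Li-doped Ag2S NPs, near its control mean of 20.3, and the difference was -1.31 (SE 0.0745, adjusted p = 1.59e-06, limma). The integrin gene ITGB6, whose product activates latent TGF-β, fell by 1.14, from 110 ± 6.43 to 50.1 ± 7.19. The AP-1 element TGANTCA was found in 1 of 24 TGF-β targets with a RefSeq promoter (4.17%) and in 6.57% of all promoters.

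The genes that the study followed for collagen synthesis did not move together. TGFB1, the gene of TGF-β1, was at 49.56, 50.33 and 53.88 with Ag2S NPs and at 68.12, 57.55 and 67.21 with Li-doped Ag2S NPs, a difference of 0.32 (SE 0.0817, adjusted p = 0.0152, limma) that became 0.17 (adjusted p = 0.0763, limma) with the trend removed. TIMP1 was at 110.5, 127.7 and 125.4 and at 170.6, 149.5 and 190.7 in the same order, a difference of 0.49 (SE 0.0957, adjusted p = 0.00474, limma) that became 0.27 (adjusted p = 0.02, limma) with the trend removed. COL1A1, the α1 chain of type I collagen, was at 42.67, 38.65 and 40.24 with Ag2S NPs and at 34.61, 40.22 and 33.07 with Li-doped Ag2S NPs. Its groups overlapped, and the difference of -0.18 had an interval from -0.41 to 0.06 (adjusted p = 0.246, limma). The control means were 24.2 for TGFB1, 66.7 for TIMP1 and 6.42 for COL1A1, below both particles for each gene. COL1A1 lay above control by 2.65 on the log2 scale with Ag2S NPs and by 2.47 with Li-doped Ag2S NPs, values that share the control libraries. The transglutaminase gene TGM2 fell by 0.72, from 90.7 ± 6.2 to 55.0 ± 6.01, with control at 0.843. Of 18 tested matrix genes that the study tabulated, which it chose on these samples and which are no independent evidence, 1 rose and 6 fell (1 and 6). Among them the tenascin gene TNC was at 72.72, 65.17 and 67.45 with Ag2S NPs and at 35.01, 34.25 and 30.24 with Li-doped Ag2S NPs, a difference of -1.04 (SE 0.197, adjusted p = 0.00372, limma). COL4A1, of basement membrane collagen, fell by 0.71, from 40.2 ± 2.65 to 24.6 ± 2.07. Of 16 collagen chains tested, 1 rose and 3 fell (1 and 4), near the 10.1% and 16.1% of all genes tested.

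Genes of matrix remodelling fell more often than they rose. Of 23 metalloproteinases and their inhibitors, 3 rose and 12 fell (3 and 10). MMP13, a collagenase, was at 547.6, 525.1 and 555.7 with Ag2S NPs, at 225.7, 247.3 and 250.9 with Li-doped Ag2S NPs and at 391.4 to 418.3 in control. Undoped cells lay above control and doped cells below it, a difference of -1.17 (SE 0.061, adjusted p = 9.23e-07, limma). The elastase gene MMP12 fell by 2.41, from 4.36 ± 0.63 to 0.74 ± 0.125, with control at 19.6. The hyaluronan synthase gene HAS3 fell by 1.12, from 32.4 ± 1.69 to 15.1 ± 2.96. Of 15 tested genes of hyaluronan, syndecans and glypicans, 2 rose and 6 fell (2 and 5), with a median difference of 0.147. The collagen prolyl hydroxylase gene P4HA1 fell by 1.13, from 44.0 ± 2.07 to 20.1 ± 2.14, the largest fall of its list. Of 18 collagen hydroxylases and cross-linking enzymes, 2 rose and 5 fell (1 and 5), with a median difference of 0.0505. Of 26 genes of the actin cytoskeleton, 0 rose and 12 fell (0 and 12). The β-actin gene ACTB was at 2533, 2457 and 2493 with Ag2S NPs, at 1656, 1643 and 1702 with Li-doped Ag2S NPs and at 1041 to 1079 in control, a difference of -0.58 between the particles (SE 0.0576, adjusted p = 7.24e-05, limma). Tropomyosin 1 (TPM1) fell by 0.89, from 116 ± 5.19 to 62.5 ± 4.05, with control at 25.3.

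Genes of inflammation fell more often than they rose. Of 30 cytokine, chemokine and NF-kB response genes, 0 rose and 10 fell (1 and 10). The lipocalin gene LCN2, which binds bacterial siderophores, was at 606.8, 656.6 and 649.2 with Ag2S NPs and at 209.3, 192.3 and 214.7 with Li-doped Ag2S NPs, with control at 761.1 to 773.7. Its difference was -1.63 (SE 0.0608, adjusted p = 5.96e-08, limma). The monocyte chemokine gene CCL2 was at 48.80, 47.58 and 57.99 with Ag2S NPs and at 16.38, 15.91 and 16.85 with Li-doped Ag2S NPs, a difference of -1.64 (SE 0.0818, adjusted p = 6.84e-07, limma). TNFSF10, the death ligand TRAIL, was at 146.5, 149.5 and 149.8 and at 45.21, 48.56 and 42.73 in the same order, a difference of -1.71 (SE 0.0594, adjusted p = 4.23e-08, limma). For each of these genes the doped libraries lay lowest and control highest. The acute phase gene SAA1, which has a near-identical copy, fell by 1.13, from 33.8 ± 0.965 to 15.7 ± 3.16. Of 55 interferon-stimulated genes 4 rose and 15 fell (7 and 14), against 10.1% and 16.1% of all genes tested. Their median moved from -0.16 to -0.01 with the trend removed. The antiviral genes SAMD9 and GBP2 fell by 0.99 and by 0.81, and SAMD9 by 0.65 with the trend removed. The interferon-stimulated response element, searched on both strands, was found in 23 of 44 promoters of the list (52.3%), against 3.02% of all promoters, and 5 of these 23 genes fell and 2 rose.

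Chaperones of the endoplasmic reticulum, the folding machinery that the unfolded protein response induces, were among the genes that fell. Of 28 genes of these chaperones and of the sensors, factors and degradation machinery of that response, 0 rose and 13 fell (0 and 13), with a median difference of -0.27. HSPA5, the main chaperone of that compartment, was at 287.9, 294.7 and 308.6 with Ag2S NPs, at 184.9, 189.3 and 166.4 with Li-doped Ag2S NPs and at 121.3 to 123.7 in control. All doped libraries lay between the other groups, and the difference was -0.72 (SE 0.0618, adjusted p = 2.77e-05, limma). The calcium-binding chaperone gene CALR fell by 0.60, from 408 ± 5.7 to 269 ± 2.69, with control at 187. HSP90B1 fell by 0.77, from 283 ± 11.1 to 167 ± 24, and ERO1A, which drives disulfide formation, fell by 0.83, from 50.5 ± 1.66 to 28.4 ± 2.61, both close to control at 172 and 31.8. With the trend removed, ERO1A fell by 0.51.

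Among genes of growth, those of mitosis fell more often than they rose, and histone, ribosomal and respiratory genes rose more often than they fell, with most histone and ribosomal genes not past the test. Of 45 genes of mitosis and the spindle, 2 rose and 22 fell (3 and 14), and their median of -0.41 became -0.18 with the trend removed, with a median GC content of the list at 43.2% against 48.6% over all genes. The mitotic kinesin gene KIF20A was at 12.23, 12.11 and 12.25 with Ag2S NPs and at 7.03, 7.27 and 5.31 with Li-doped Ag2S NPs, with control at 41.6, a difference of -0.90 (SE 0.114, adjusted p = 0.000361, limma). The spindle gene DLGAP5 fell by 0.91 and the mitotic kinase gene CDK1 by 0.58, or by 0.35 with the trend removed. Of 24 genes listed as replication-dependent histones, 7 rose and 0 fell (6 and 0). HIST1H2BK was at 36.03, 34.58 and 37.91 and at 58.64, 64.25 and 70.40 in the same order, a difference of 0.83 that became 0.43 (adjusted p = 0.0231, limma) with the trend removed, and HIST1H2AC rose by 0.60. Histone genes are close copies of each other, and a value per gene does not tell their transcript forms apart. Whether the rises were of histone mRNA made during DNA replication was not tested. Of 40 nuclear-encoded subunits of the respiratory chain, 21 rose and 0 fell (19 and 0), among them the complex I genes NDUFS8, by 0.75, and NDUFB9, by 0.51. The count of rises was 11 without Ag2S replicate 7 and 14 without Ag2S replicate 8. Of 77 ribosomal protein genes, 25 rose and 2 fell (17 and 2), but 3 rose without Ag2S replicate 7, 8 without Ag2S replicate 8, and 15 without either Li-doped replicate 15 or control replicate 2. RPS29 was at 2084, 2577 and 2591 with Ag2S NPs and at 3158, 3554 and 4812 with Li-doped Ag2S NPs, with its widest spread in the doped group and a difference of 0.65 (SE 0.139, adjusted p = 0.00695, limma).

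The genes closest to lithium's known targets moved in both directions, and in the 4 lists below most members did not pass the test. The shares of all genes tested were 10.1% higher and 16.1% lower, against which the counts are to be read. Of 12 tested genes in a list of Wnt/β-catenin feedback genes, 1 rose and 3 fell (1 and 2). The list holds targets of β-catenin but also ligand and inhibitor genes of the pathway, such as WNT6, WNT7A and SFRP1. The targets AXIN2 and LEF1 did not pass the filter. The Wnt inhibitor gene APCDD1 was at 15.03, 13.76 and 14 with Ag2S NPs and at 24.31, 24.17 and 35.08 with Li-doped Ag2S NPs, a difference of 0.94 (SE 0.204, adjusted p = 0.00766, limma). The secreted inhibitor gene SFRP1 fell by 0.47 and the pseudoreceptor gene BAMBI by 0.60, at adjusted p-values of 0.0291 and 0.033 that leaving out single libraries moved past 0.05. Of 18 genes of GSK3 and glycogen metabolism 3 rose and 4 fell (3 and 1), and of 28 genes of inositol phosphates 5 rose and 1 fell (2 and 1). GSK3A was at 17.60, 18.24 and 19.30 with Ag2S NPs and at 25.24, 23.30 and 25.69 with Li-doped Ag2S NPs, a difference of 0.43 (SE 0.0754, adjusted p = 0.00266, limma). GSK3B, chosen after its values were seen, had a difference of -0.28 with an interval from -0.51 to -0.05 (adjusted p = 0.0711, limma), and -0.02 with the trend removed. The inositol monophosphatase gene IMPA1 was at 11.04, 8.96 and 10.33 and at 6.23, 6.89 and 4.86 in the same order, a difference of -0.75 (SE 0.143, adjusted p = 0.00391, limma), or -0.48 with the trend removed, while IMPA2 rose by 0.33, or by 0.15 (adjusted p = 0.257, limma) with the trend removed. Of 18 genes of sodium, potassium and proton transport 3 rose and 3 fell (3 and 4), and the sodium channel gene SCNN1A fell by 1.23, from 23.3 ± 1.28 to 9.90 ± 0.732, with control at 43.8. These are mRNA levels, and the activity of the kinases and phosphatases was not measured.

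Other large rises were of genes with low levels. The potassium channel gene KCNK7 was at 1.40, 1.49 and 1.56 with Ag2S NPs and at 5.80, 4.23 and 6.31 with Li-doped Ag2S NPs, a difference of 1.79 (SE 0.21, adjusted p = 0.00023, limma). THEM5, a mitochondrial thioesterase, rose by 1.52, from 3.12 ± 0.725 to 9.16 ± 2.04, and PLAC8 rose by 1.55, from 1.90 ± 0.463 to 5.84 ± 1.77. The asparaginase gene ASPG had the largest difference of all named genes, 3.26 (SE 0.967, adjusted p = 0.0299, limma), but its doped libraries were at 8.52, 0.48 and 8.51, and its undoped libraries at 0.12, 0.37 and 0.37. The call rested on 2 doped libraries and was lost in each fit without one of them.

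The effect of doping at 320 μg/mL was not the effect at 160 μg/mL enlarged. At 160 μg/mL, in other libraries of both particles, 2563 of 11987 genes rose (21.4%) and 3479 fell (29%), 50.4% together. Of 11814 genes tested at both doses, 1854 were called at both, 1153 in the same direction, which is 37.1% of the calls at 320 μg/mL and 19.4% of those at 160 μg/mL. A further 701 were called in opposite directions, 22.5% and 11.8% of the calls. Pearson's r of the differences across genes, given as a description, was 0.127. In a single fit of all 15 libraries the effect of doping differed between doses for 4746 of 11952 genes (39.7%), 2415 (20.2%) with the higher value at 320 μg/mL and 2331 (19.5%) with the lower.

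**Figure D5:**
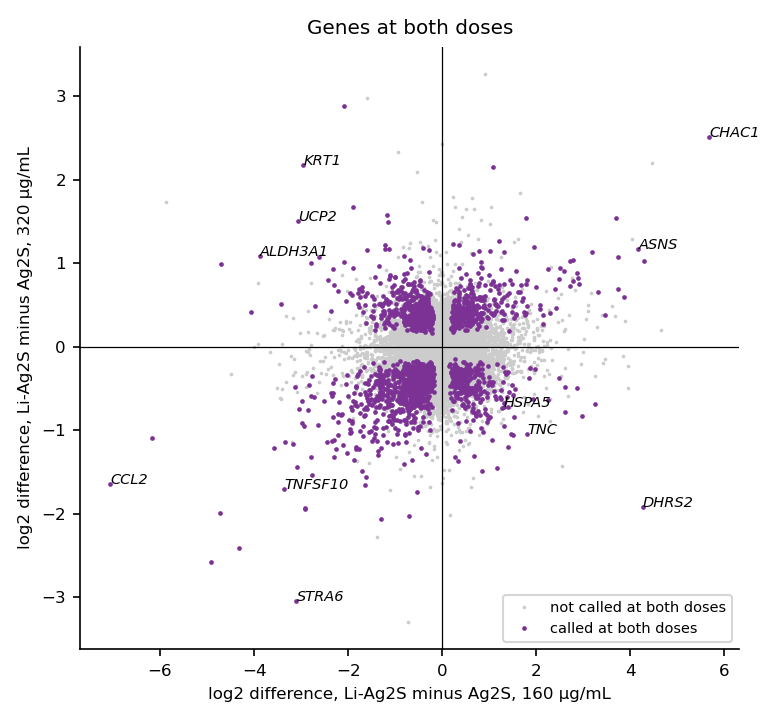
Log2 difference between Li-doped and undoped Ag2S NPs at 160 μg/mL (horizontal axis) against that at 320 μg/mL (vertical axis) for genes tested at both doses, with genes called at both doses in purple. Of these 1854 genes, 1153 lie in the quadrants of same direction and 701 in the others.

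Most ATF4 targets rose at both doses, and most had a smaller difference at the higher one. At 160 μg/mL 25 of 31 rose and 3 fell, with a median of 1.79 against 0.41, and the difference was lower at 320 μg/mL for 19 members by the test between doses. ASNS differed by 4.18 at 160 μg/mL and 1.17 at 320 μg/mL, and PSAT1 by 3.69 and 1.54. STRA6, at -3.10 and -3.04, MT1X, at -1.17 and -1.15, KRT16, at 1.78 and 1.54, and AKR1C1, at 1.22 and 1.26, had nearly equal differences at both doses.

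In some other lists the balance of rises and falls differed between doses. Of the 27 cholesterol genes 1 rose and 16 fell at 160 μg/mL, and 20 had a higher difference at 320 μg/mL. MVK differed by -1.10 at 160 μg/mL and by 0.85 at 320 μg/mL, and KRT1 by -2.95 and 2.17. Of the 28 genes of endoplasmic reticulum chaperones and the unfolded protein response, 20 rose and 0 fell at 160 μg/mL, and 23 had a lower difference at 320 μg/mL, as HSPA5 with 1.32 and -0.72. TGF-β targets went both ways at 160 μg/mL, where 15 of 35 rose and 13 fell, and had a median of 0.27 there and of -0.39 at 320 μg/mL, with TIMP3 at 0.68 and -1.31 and TNC at 1.80 and -1.04. Respiratory chain genes went from 1 rise and 26 falls at 160 μg/mL to 21 rises and 0 falls. In another pair of lists the median was below 0 at both doses and nearer to 0 at 320 μg/mL. Of the 55 interferon-stimulated genes 52 fell at 160 μg/mL, with a median of -1.43 against -0.16, and 43 had a higher difference at 320 μg/mL. The 45 mitotic genes all fell at 160 μg/mL, with a median of -1.27 against -0.41, and 39 of them had a higher difference at 320 μg/mL.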

How the data were processed

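RNA of HaCaT cells was sequenced in paired reads on a NovaSeq after TruSeq preparation. Per the labels and the methods, the authors ran TopHat for alignment, Cufflinks 2.1.1 for expression and Cuffdiff for comparison, correcting multi-mapping reads and biased fragments. Genome build, annotation release and the other tool versions were not given in the sources used here. Values were deposited by the authors as an FPKM for each gene in each library, to 2 decimals, beside their own group values, log2 ratios, p-values and q-values, which were not used. The strand setting is not given, so reads of overlapping antisense genes cannot be told apart. Counts were not recovered, and precision rests on the spread of 3 libraries.

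Of 17653 genes, the 11903 whose FPKM averaged at least 1 in the 9 libraries of the dose (control, Ag2S NPs, Li-doped Ag2S NPs) were fitted on log2(FPKM + 0.1), a scale that understates the change of low genes, with limma 3.58.1 in R 4.3.3 (lmFit, eBayes with a trend, two-sided, Benjamini-Hochberg, threshold 0.05). Intervals are 95%. Doses were compared as an interaction over all 15 libraries. Cuffdiff could not be run on FPKM. The fit was checked on simulated data.

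The comparison and the gene lists were chosen with earlier results of these data known. Named genes were taken from the 15 largest rises and falls with no overlap and an FPKM averaging at least 5, up to 5 members of each list by p, the study's genes, cell type markers, and genes called at both doses or differing between them. Lists are described by counts and medians, with no set test. Coordinates of genes are those of GENCODE on GRCh38, matched by gene identifier, and promoters are RefSeq on GRCh38.p14. Alternatives were another pseudocount, filter, scaling or fit, weights, leaving out each library and, added after seeing the data, removal of a spline trend (5 degrees of freedom) with GC content and length.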

Additional observations from a re-analysis of the deposited data

Results flagged for a closer look

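The effect of doping differed between 160 and 320 μg/mL, by the test of the difference itself in 1 limma fit of all 15 libraries at an adjusted p under 0.05, for 76 of the 97 genes followed, against 39.7% of all genes tested. The value after each gene is the log2 difference between Li-doped and undoped Ag2S NPs at 320 μg/mL minus the same at 160 μg/mL. It was above 0 for 48 genes and below 0 for 28. Many of these genes were followed because the effect was large at one dose or in a list, so their number is a description.

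Genes higher with doping at both doses, and less so at 320 μg/mL, were CHAC1 (-3.17), ASNS (-3.00), TRIB3 (-2.17), PSAT1 (-2.15), PYCR1 (-1.75), AARS (-1.66), TIMP1 (-1.03), NQO1 (-0.869) and ATF4 (-0.63). Genes higher at both doses, and more so at 320 μg/mL, were SPRR1B (0.448), PHGDH (0.589), SLC6A9 (0.881), AKR1C3 (0.989) and KCNK7 (1.55).

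Genes higher with doping at 160 μg/mL and lower at 320 μg/mL were DHRS2 (-6.19), TNC (-2.85), HAS3 (-2.18), PADI3 (-2.17), HSPA5 (-2.04), TIMP3 (-1.99), LCN2 (-1.64), ERO1A (-1.55), P4HA1 (-1.51), HSP90B1 (-1.40), ACTB (-0.887) and GSK3B (-0.616). Genes lower with doping at 160 μg/mL and higher at 320 μg/mL were IMPA2 (0.509), GSK3A (0.553), NDUFB9 (0.584), RPS29 (0.724), NDUFS8 (0.863), PGD (0.939), KRT14 (0.992), LSS (1.38), AKR1C2 (1.45), KRT5 (1.62), THEM5 (1.72), SHMT1 (1.78), HIST1H2AC (1.87), MVK (1.95), INSIG1 (2.1), HIST1H2BK (2.26), ACSL1 (2.29), PRODH (2.43), APCDD1 (2.84), FASN (3.04), ALDH1A1 (3.56), UCP2 (4.57), ALDH3A1 (4.96) and KRT1 (5.12).

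Genes lower with doping at both doses, and less so at 320 μg/mL, were TGFBI (0.297), FOXC1 (0.504), SCNN1A (0.543), CDK1 (0.649), TGM2 (0.677), ELF3 (0.979), SAMD9 (0.979), DLGAP5 (1.00), IVL (1.04), EDAR (1.24), ITGB6 (1.30), KIF20A (1.30), GBP2 (1.33), DHRS3 (1.46), TNFSF10 (1.65), MMP12 (1.91), MMP13 (1.99), KRT13 (2.33) and CCL2 (5.42). Genes lower at both doses, and more so at 320 μg/mL, were TMPRSS11E (-1.32), ALDH1A3 (-1.21), CYP24A1 (-0.951), IMPA1 (-0.684), NFE2L2 (-0.564), TP63 (-0.537) and CALR (-0.526).

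These sets follow the sign of each difference, whether or not that difference passed the test at that dose.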

How the results depend on the processing

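No paired analysis was possible because the groups share no replicate number in the labels. Of the 97 genes followed, 88 kept their side of the threshold and their direction under every alternative run, and 0 changed direction. The exceptions were ASPG, BAMBI, MT1F, SFRP1, TGFB1, IMPA2 and HIST1H2BK, which lost their call under at least 1 alternative, and MT1E and GSK3B, which gained one. Of 2027 comparisons of a gene with an alternative, 50 lost and 7 gained a call. Of 1197 comparisons of a list median, 235 moved by more than the spread between libraries.

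Genes changed more than 2-fold numbered 33 risen and 51 fallen with a pseudocount of 1, and 30 and 54 with a mean FPKM of at least 5, against 62 and 113. Scaling by the sum gave 703 risen genes, and weights per library gave 2002, of which 100 were over 2-fold, against 1203. Removing the trend with GC content and length gave 1123 fallen genes, and 1040 when replicate 15 was left out as well, against 1921. Over the 9 fits that leave out 1 library, risen genes numbered 669 to 1322 and fallen genes 1051 to 2252. The lowest were without Ag2S replicate 7 and the highest without Li-doped replicate 14. The causes were not tested. With the GC and length trend removed from all 15 libraries or with the median ratio, the counts of genes whose effect differed between doses stayed within 1.5 times. The depth of each library is unknown, so which absent differences lay below the counting error cannot be told.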

Other observations

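Further gene lists were chosen with earlier results known. Their counts are given beside the 10.1% of all genes that rose and the 16.1% that fell at 320 μg/mL. No test of the list was run. Counts with the GC and length trend removed are in brackets, to be read against 9.95% and 9.43%. Of 25 genes listed as targets of p53, a factor that answers DNA damage, 8 rose and 2 fell (7 and 2). The activity of p53 in these cells was not measured. Of 42 genes of DNA replication and nucleotide synthesis 5 rose and 3 fell (5 and 1). Of 16 targets of YAP, a factor that answers cell spreading, 2 rose and 2 fell (2 and 4). Of 33 proteasome subunits, which degrade ubiquitin-tagged proteins, 11 rose and 6 fell (10 and 0). The count on deposited values rested on single libraries, since 2 rose and 3 fell without Ag2S replicate 7, and 5 rose and 1 fell without Ag2S replicate 8. The count was 7 and 3 without Li-doped replicate 15 or without control replicate 1 or 2, and without control replicate 3, Ag2S replicate 9 or Li-doped replicate 13 the falls numbered 3, 2 and 2.

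Of 30 junction genes, which hold keratinocytes together, 3 rose and 9 fell (7 and 8). Of 29 regulators of cell death 4 rose and 8 fell (3 and 5), and 5 fell on deposited values without Ag2S replicate 7. Of 22 genes of ERK output and feedback 1 rose and 3 fell at 320 μg/mL (2 and 6), against 18 and 1 at 160 μg/mL. By the test of the difference, 18 of the 22 had a lower difference at 320 μg/mL.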
